A study of Mus musculus with 8 samples.

Results

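The genes described here belong to the germinal centre programme of B cells, and their levels were compared between splenic B cells of Sca1-HGAL mice and of Control mice. The 9 genes were Bcl6, Mybl1, Mef2b, Lmo2, Ezh2, Neil1, Ung, Nuggc and Klhl6. A gene was measured where the platform annotation tied a probe set (the group of probes read as 1 value) to its symbol alone, which held for 8 of the 9 genes, 1 probe set each, among 19937 measured genes. Mef2b, a transcription factor gene that is mutated in germinal centre lymphomas, was covered by 1 probe set that is also annotated to Borcs8 and Gm45929, so no value is given for it.

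The Sca1-HGAL group held 4 samples from adult CBAxC57BL/6J mice that carry human HGAL under the Sca1 promoter. One label field gives them as knock-in, and the design text as transgenic. The Control group held 4 samples from wild-type littermates on the same mixed background. In both groups B cells carrying CD22 and B220 were sorted from the spleen, and the total RNA of each sample was read on its own Affymetrix array (Mouse Gene 1.0 ST). HGAL, also called GCET2 or GCSAM, is a signalling adaptor that human germinal centre B cells express. The Sca1 promoter is active in many blood cell types, so HGAL was not limited to the germinal centre stage. The labels name no immunisation, give no sex, litter or batch, and leave unstated whether the samples came from different mice, so each p-value rests only on how these samples varied.

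Germinal centres are sites in spleen and lymph node follicles where activated B cells divide, mutate their antibody genes and are selected for affinity. BCL6 holds cells in this state by repressing genes of activation, cell cycle arrest and plasma cell fate, and EZH2 silences an overlapping set through histone methylation. The mutations start from uracils in the DNA of antibody genes, which repair enzymes such as UNG then process. Resting follicular B cells transcribe part of the programme, including Bcl6, although they hold little BCL6 protein, so an RNA level in whole spleen B cells is no count of germinal centre cells.

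None of the 8 measured genes passed limma between Sca1-HGAL and Control arrays at a Benjamini-Hochberg adjusted p under 0.05 over all 21640 probe sets tested, where 0.00462% of probe sets passed. Adjusted p ranged from 0.479 for Ezh2 to 0.943 for Ung. At an unadjusted p under 0.05 there were 2, Ezh2 and Neil1, both lower in Sca1-HGAL arrays, against 9.59% of all probe sets, 4.06% lower and 5.53% higher. A count of 2 among 8 genes is too small to be read against these shares. The log2 difference, Sca1-HGAL minus Control, was negative for 7 genes and positive for Lmo2, with a median of -0.13 over the 8, against 0.02 over all genes. No gene had groups that did not overlap, which 5.45% of probe sets had. In a bulk sample such as these, fewer cells of a type and less RNA per cell cannot be told apart.

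**Figure D1:**
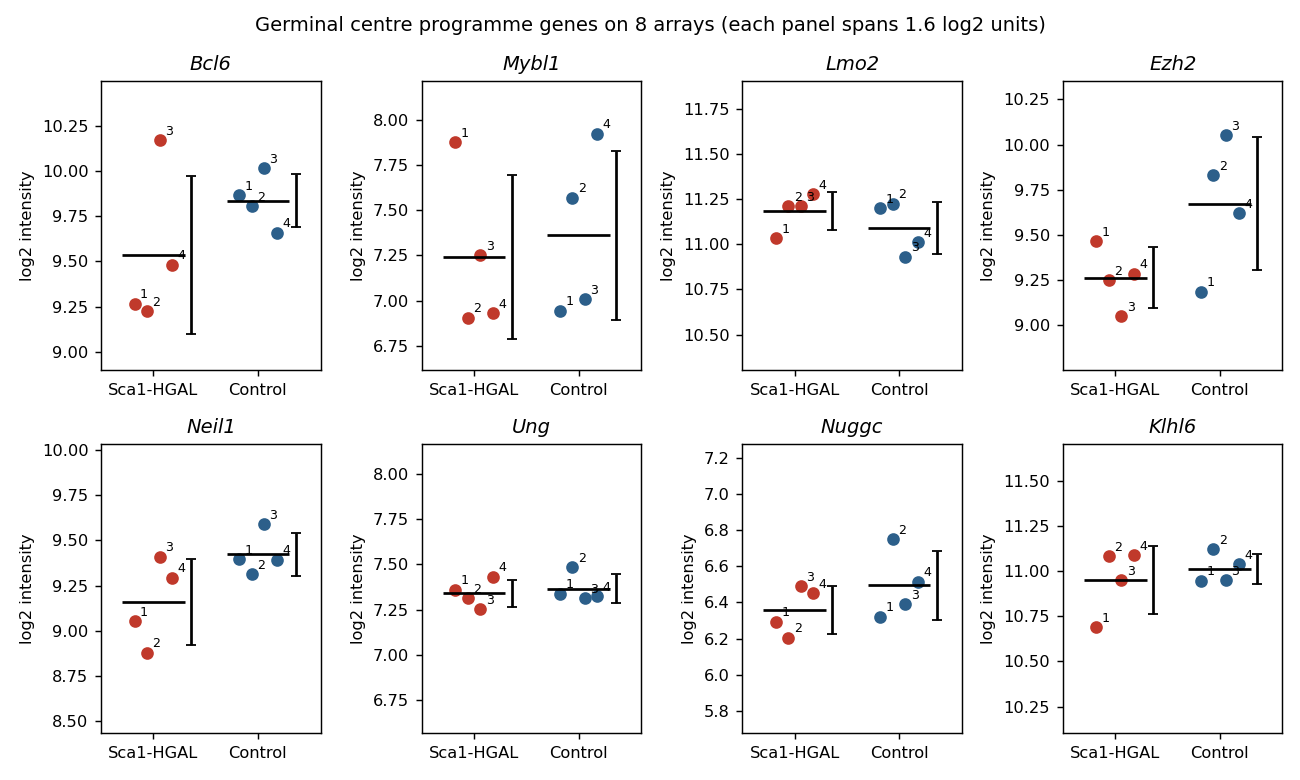
Log2 intensity of the 8 measured genes on each array, with Sca1-HGAL left and Control right in each panel; numbers are the replicate numbers, horizontal lines the group means and bars the SD (n = 4). The groups overlap in every panel, Bcl6 of Sca1-HGAL replicate 3 (10.17) lies above all other arrays, and Ezh2 of Control replicate 1 (9.19) lies among the Sca1-HGAL arrays.

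Among the transcription regulators, Bcl6 (probe set 10438738), the repressor that defines the germinal centre state, had log2 intensities of 9.27, 9.22, 10.17 and 9.48 in Sca1-HGAL replicates 1 to 4, against 9.87, 9.80, 10.01 and 9.66 in Control replicates 1 to 4. Thus 3 Sca1-HGAL arrays lay below every Control array, and replicate 3 lay above all of them. The means were 9.54 ± 0.44 in Sca1-HGAL and 9.84 ± 0.15 in Control arrays (SD, n = 4 each), a log2 difference of -0.30 (SE 0.19, limma adjusted p = 0.657), or 0.812 times the Control level. The 95% confidence interval of the ratio was 0.609 to 1.08. Without Sca1-HGAL replicate 3 the log2 difference was -0.51 with a limma adjusted p = 0.0802, still short of the threshold. In that fit 40 probe sets of the whole series passed, against 1 with all arrays. With any other array left out, the Bcl6 difference was -0.36 to -0.20, with a limma adjusted p of 0.653 to 0.870. Sca1-HGAL replicate 3 also had the highest follicular B list level of its group, 11.66 against 11.27 to 11.40 on the other Sca1-HGAL arrays. Its level of the B-1 and age-associated B list was the lowest, 8.10 against 8.48 to 9.41.

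The promoters of Bcl6 are shown because BCL6 is the central repressor of the programme, and that of Neil1 because it varied along with Bcl6. Promoter sequences (250 bases before to 50 after a RefSeq start, GRCm38.p6) were at hand for 6 of the 9 genes. Each is printed 5′ to 3′ on the gene's strand, and capitals mark TTCNNNGAA, a palindrome that STAT factors bind. The BCL6 recognition sequence is a narrower form of it, so a match need not be a BCL6 sequence.
Bcl6, first start (chr16:23988803-23989102, minus strand): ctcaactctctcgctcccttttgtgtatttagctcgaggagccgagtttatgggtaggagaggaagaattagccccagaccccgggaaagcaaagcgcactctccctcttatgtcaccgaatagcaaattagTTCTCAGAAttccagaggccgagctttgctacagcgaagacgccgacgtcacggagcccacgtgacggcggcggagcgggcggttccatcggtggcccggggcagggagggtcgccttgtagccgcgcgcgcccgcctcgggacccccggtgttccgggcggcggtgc
Bcl6, second start (chr16:23981234-23981533, minus strand): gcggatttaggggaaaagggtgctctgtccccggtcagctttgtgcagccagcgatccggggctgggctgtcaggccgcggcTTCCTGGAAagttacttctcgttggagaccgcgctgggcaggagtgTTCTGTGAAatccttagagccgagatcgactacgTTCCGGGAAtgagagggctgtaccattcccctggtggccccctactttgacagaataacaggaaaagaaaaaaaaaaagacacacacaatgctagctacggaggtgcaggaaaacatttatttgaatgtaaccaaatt
Neil1 (chr9:57148256-57148555, minus strand): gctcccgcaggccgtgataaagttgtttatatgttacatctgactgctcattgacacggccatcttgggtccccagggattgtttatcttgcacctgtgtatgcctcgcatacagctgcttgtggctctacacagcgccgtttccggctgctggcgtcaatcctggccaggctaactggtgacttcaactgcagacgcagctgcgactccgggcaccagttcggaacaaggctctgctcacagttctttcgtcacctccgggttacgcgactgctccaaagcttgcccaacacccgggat
The palindrome was present once at the first Bcl6 start, 118 bases upstream, and 3 times at the second, 168, 122 and 88 bases upstream, and not in the Neil1 window. Of 32851 mouse promoters of this length, 8.30% held it. BCL6 is known in human cells to repress its own gene, but a match is a description of letters and not a bound site.

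Mybl1 (probe set 10353010), which encodes A-MYB, a relative of c-MYB that human germinal centre B cells express, had log2 intensities of 7.88, 6.91, 7.25 and 6.93 in Sca1-HGAL and 6.94, 7.57, 7.01 and 7.92 in Control replicates 1 to 4. Sca1-HGAL replicate 1 and Control replicates 2 and 4 were high and the groups overlapped widely. The log2 difference was -0.12 (SE 0.26, limma adjusted p = 0.927). Proliferation genes such as Bub1 and Aurkb were summarised as the mean log2 level of 23 genes. This level was highest on Sca1-HGAL replicate 1 as well, at 8.32, against 7.67 to 7.69 on the other 3. On Control replicates 1 to 4 it was 7.67, 7.95, 8.15 and 8.12. Over the 8 arrays Mybl1 had a Pearson r of 0.72 (Spearman rho 0.62) with this list. It was 0.95 without the 2 arrays farthest from the median of the list, and 0.72 once group means were removed. Control replicate 3 was the highest Control array for this list, while its Mybl1 level was low, at 7.01. The part of this list in the Mybl1 values was not tested. Control replicates 2 and 4 were also the 2 arrays with high Xist, which the inactive X chromosome transcribes. Their Xist levels were 12.17 and 12.18, while the remaining 6 arrays had 5.28 to 5.65, and their levels of the Y-linked Eif2s3y were low, at 4.22 and 3.96. Every Sca1-HGAL array was among those 6, so this sex-linked pattern was not balanced between the groups. Without Control replicates 2 and 4 the Mybl1 difference changed sign, to 0.27 (limma adjusted p = 0.823).

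Lmo2 (probe set 10474201), a LIM-only bridging protein of transcription factor complexes that marks human germinal centre lymphomas, was at 11.03, 11.21, 11.21 and 11.28 in Sca1-HGAL and 11.20, 11.22, 10.93 and 11.01 in Control replicates 1 to 4. These values span a narrow range and the groups overlapped. They differed by 0.09 on the log2 scale (SE 0.08, limma adjusted p = 0.787), with a 95% confidence interval of the ratio from 0.935 to 1.21.

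Ezh2 (probe set 10544501), the histone H3 lysine methyltransferase of the complex PRC2, had the largest difference of the 8 genes. It was at 9.47, 9.25, 9.05 and 9.29 in Sca1-HGAL, against 9.19, 9.83, 10.05 and 9.62 in Control replicates 1 to 4. Thus 3 Control arrays lay above every Sca1-HGAL array, and Control replicate 1 lay among them. The means were 9.26 ± 0.17 and 9.67 ± 0.37 in Sca1-HGAL and Control arrays (SD, n = 4 each), a log2 difference of -0.41 (SE 0.16), or 0.753 times the Control level. In limma this had an unadjusted p = 0.0325 and an adjusted p = 0.479. The exact two-sided permutation test over the 70 assignments of the arrays gave p = 0.114, where 0.0286 is the smallest it allows.

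Ezh2 varied with several marker lists, some of other cells in the sort and some of B cells or proliferation, but not with all. Over the 8 arrays its level had a Pearson r of 0.96 (Spearman rho 0.93) with the mean level of 7 NK cell genes, 0.90 without the 2 arrays farthest from the median of that list, and 0.94 once group means were removed. The NK list ranged from 5.76 to 6.09 in Sca1-HGAL and from 5.95 to 6.42 in Control arrays, and 6 of its 7 genes were under the background limit given below in both groups. Of these, Gzma, a granzyme of NK and T cells, was at 6.19 in Sca1-HGAL and 6.96 in Control arrays, a log2 difference of -0.77 (limma adjusted p = 0.272). Prf1, which encodes the pore-forming perforin and was the 1 gene above the limit, was at 8.14 in Sca1-HGAL and 8.02 in Control arrays, a difference of 0.12, and the median difference of the list was -0.15. Ezh2 also had r = 0.82 with 5 plasmacytoid dendritic cell genes and 0.77 with 9 immature B cell genes, which came to 0.44 and -0.10 without the 2 arrays farthest from the median of each list. The first of these lists was at 8.05 to 8.25 in Sca1-HGAL and 8.26 to 8.80 in Control arrays, with 4 of 5 genes negative. The second was at 6.72 to 6.94 in Sca1-HGAL and 6.90 to 7.32 in Control arrays, with 5 of 9 genes negative. With the proliferation list the r was 0.69, and 0.84 without the 2 arrays farthest from its median. With plasma cell genes r was 0.64 and with B cell identity genes 0.51, or 0.91 and 0.87 without the 2 farthest arrays of each list. Once group means were removed, r was 0.72 with plasma cell and -0.46 with B cell identity genes. It was then 0.71, 0.68 and 0.58 with the proliferation, plasmacytoid dendritic cell and immature B lists. With marginal zone B genes r was 0.65, or 0.74 without the 2 farthest arrays and 0.25 once group means were removed. Lists of other cells had r of 0.49 (T cell), 0.05 (macrophage and monocyte), 0.05 (neutrophil) and -0.22 (erythroid). Once group means were removed these were 0.73, 0.27, 0.69 and -0.05, so which lists Ezh2 varied with depended on the measure. The proliferation list ranged from 7.67 to 8.32 in Sca1-HGAL and from 7.67 to 8.15 in Control arrays. Of its 23 genes, 19 were negative and 0 had an unadjusted p under 0.05. Over all 19937 genes, 8699 were negative and 9.53% had such a p. The genes most like Ezh2 over the arrays, of 15723 others above log2 6, were Lef1 (r = 0.98), a Wnt pathway transcription factor of T cells and early B cells, Klra3 (r = 0.98), an NK cell receptor gene, and Mrps24 (r = 0.97), a mitochondrial ribosome gene. Klra3 was at 6.24 in Sca1-HGAL and 6.54 in Control arrays, under the background limit. The top r of so many genes over 8 arrays is high by selection, so these r are a description. All such points share the array and its normalisation, and the part of these cells in the Ezh2 difference was not tested.

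The Ezh2 promoter is shown because E2F factors, which drive genes of the cell cycle, are known to act on it, and capitals mark TTTGGCGC, a sequence of the E2F type.
Ezh2 (chr6:47594981-47595280, minus strand): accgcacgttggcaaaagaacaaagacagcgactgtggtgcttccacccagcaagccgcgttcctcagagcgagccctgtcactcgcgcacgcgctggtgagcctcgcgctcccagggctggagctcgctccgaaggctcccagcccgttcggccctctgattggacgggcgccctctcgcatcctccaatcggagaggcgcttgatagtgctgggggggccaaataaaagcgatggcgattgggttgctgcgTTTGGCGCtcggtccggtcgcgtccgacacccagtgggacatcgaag
It was found once, from base 4 of the transcript, on the printed strand, and 0.514% of all promoters held it on either strand. A second E2F sequence, TTTCCCGC, present in 1.07% of all promoters, was in none of the windows of these genes, and no match overlapped another motif.

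**Figure D2:**
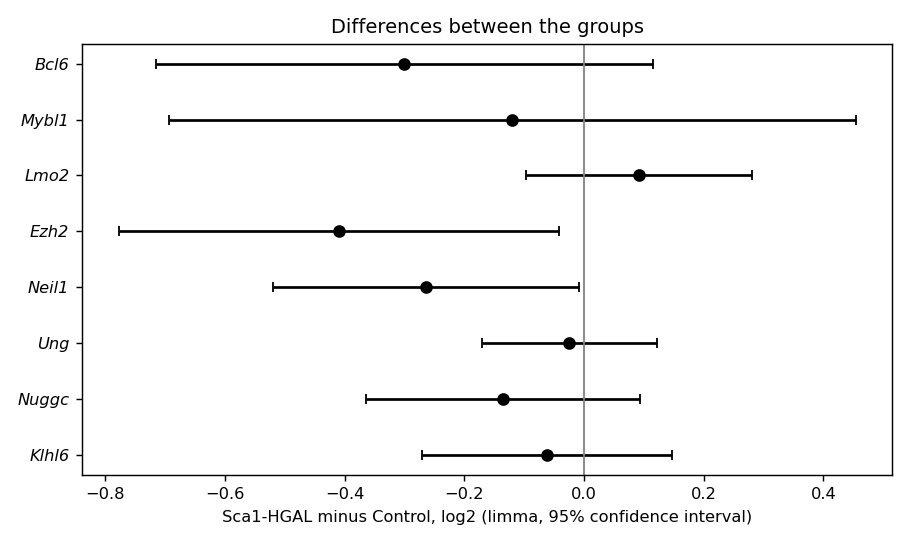
Difference in log2 level, Sca1-HGAL minus Control, with the 95% confidence interval of the limma fit (8 arrays) for each gene. The intervals of Ezh2 (-0.78 to -0.04) and Neil1 (-0.52 to -0.01) lie below 0 before adjustment for the probe sets tested, and those of the other 6 genes include 0.

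The repair genes came next. Neil1 (probe set 10593887), a DNA glycosylase of base excision repair, was at 9.05, 8.88, 9.41 and 9.29 in Sca1-HGAL, against 9.40, 9.31, 9.59 and 9.39 in Control replicates 1 to 4. Again 3 Sca1-HGAL arrays lay below every Control array, with replicate 3 in the Control range. The means were 9.16 ± 0.24 in Sca1-HGAL and 9.42 ± 0.12 in Control arrays (SD, n = 4 each). The log2 difference was -0.26 (SE 0.11, unadjusted limma p = 0.044, adjusted p = 0.506), or 0.833 times the Control level, and the exact permutation p was 0.114.

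Bcl6 and Neil1 had a Pearson r of 0.86 (Spearman rho 0.95) over the 8 arrays, the highest of the 28 gene pairs, and 0.83 once group means were removed. Without the 2 arrays farthest from the median of Bcl6 it was 0.61. Both followed the follicular B list of 5 genes, which holds Fcer2a (CD23) and the homing receptor gene Ccr7, with r of 0.90 for Bcl6 and 0.87 for Neil1, or 0.71 and 0.55 without the 2 arrays farthest from the median of the list. That list ranged from 11.27 to 11.66 in Sca1-HGAL and from 11.63 to 11.76 in Control arrays. All 5 genes had negative differences, 3 of them at an unadjusted p under 0.05. Over all 19937 genes, 8699 were negative and 4.03% were lower at that p. The B-1 and age-associated B list ran the other way, with r of -0.79 for Bcl6 and -0.81 for Neil1 (Spearman rho -0.57 and -0.62), and -0.37 for both without the 2 arrays farthest from the median of that list. Its level was 8.10 to 9.41 in Sca1-HGAL and 7.77 to 7.89 in Control arrays. All 10 of its genes were positive, 8 of them at an unadjusted p under 0.05, against 5.49% of all genes higher. The immature B list had r of 0.69 for Bcl6 and 0.70 for Neil1, or 0.83 and 0.74 without its 2 farthest arrays. With T cell, neutrophil and macrophage lists r was -0.70, -0.67 and -0.49 for Bcl6, and -0.46, -0.57 and -0.37 for Neil1. Without the 2 farthest arrays of the macrophage list its r came to -0.99 and -0.95. The marginal zone B list had 11 of 11 genes negative, 8 of them at an unadjusted p under 0.05. Its r was 0.28 for Bcl6 and 0.57 for Neil1. These lists were fixed with earlier results of these arrays known, and the part of such shifts in B cell subsets in the Bcl6 and Neil1 values was not tested.

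**Figure D3:**
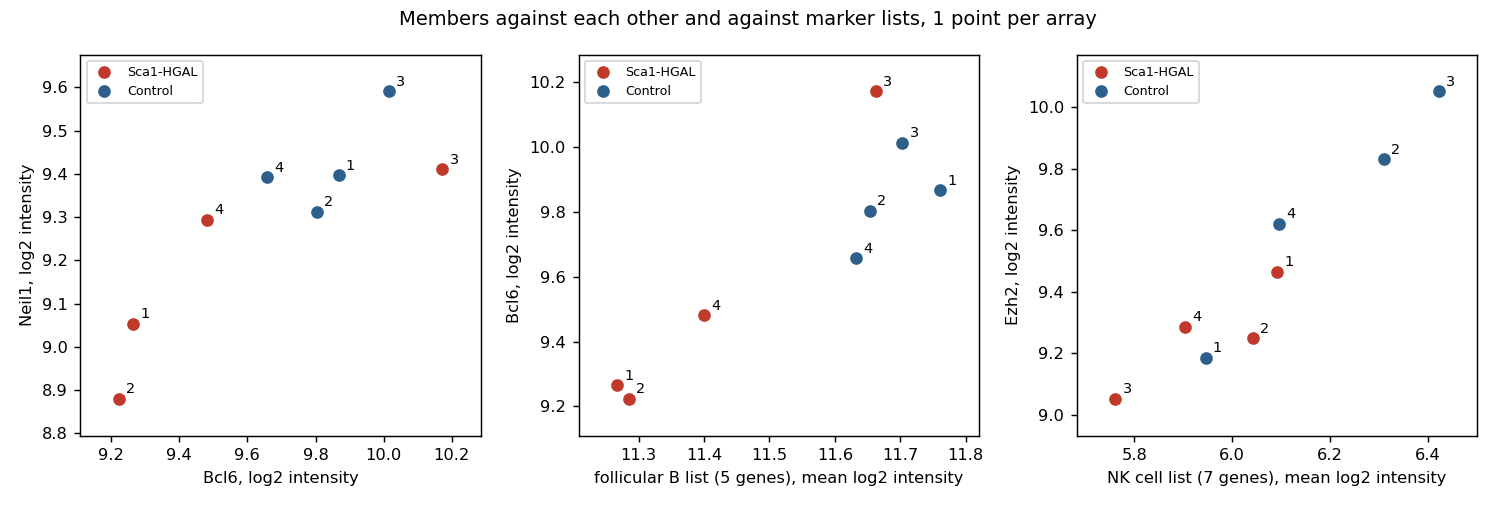
Log2 intensities on the 8 arrays, red for Sca1-HGAL and blue for Control with replicate numbers: Neil1 against Bcl6, Bcl6 against the mean of the follicular B list, and Ezh2 against the mean of the NK cell list. Sca1-HGAL replicates 1, 2 and 4 lie at the low end of the first and second panels, while replicate 3 lies with the Control arrays.

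The genes nearest in pattern to Neil1 were Iars, an aminoacyl-tRNA synthetase gene, Dusp11, an RNA phosphatase gene (both r = 0.97), and Samsn1, an adaptor gene that dampens B cell activation (r = 0.96). Those nearest to Bcl6 were the clock repressor gene Cry1, the membrane skeleton gene Epb41l2 (both r = 0.98) and Atxn2 (r = 0.96), an RNA-binding protein gene. Their log2 differences ranged in these 6 genes from -0.25 for Iars to -0.08 for Epb41l2 and Cry1, and all 6 had overlapping groups. As for Ezh2, these were the highest r of 15723 genes over 8 arrays, so they are high by selection.

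Ung (probe set 10524450), the uracil DNA glycosylase that acts on uracils in class switching and hypermutation, was nearly level. It was at 7.36, 7.31, 7.25 and 7.43 in Sca1-HGAL and 7.34, 7.48, 7.31 and 7.32 in Control replicates 1 to 4. The ranges overlapped. The log2 difference was -0.02 (SE 0.07, limma adjusted p = 0.943), with a 95% confidence interval of the ratio from 0.888 to 1.09. Its level followed the macrophage and monocyte list of 9 genes, with r = 0.89 over the arrays and 0.54 without the 2 arrays farthest from the median of the list. That list was at 7.55 to 8.07 in Sca1-HGAL and 7.56 to 8.02 in Control arrays, with 3 of 9 genes under the background limit, and its part in the Ung values was not tested.

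Nuggc (probe set 10416006), a nuclear GTPase of germinal centre B cells that limits DNA damage, was at 6.29, 6.20, 6.49 and 6.45 in Sca1-HGAL and 6.32, 6.75, 6.39 and 6.52 in Control replicates 1 to 4. Control replicate 2 was the highest and the groups overlapped. Nuggc had a log2 difference of -0.13 (SE 0.10, limma adjusted p = 0.730). Without the 2 arrays high in Xist it was close to 0, at 0.0044 (adjusted p = 0.995).

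Klhl6 (probe set 10438445), a CUL3 ubiquitin ligase adaptor that mice need for normal germinal centres, was at 10.69, 11.08, 10.95 and 11.09 in Sca1-HGAL and 10.95, 11.12, 10.95 and 11.04 in Control replicates 1 to 4. Sca1-HGAL replicate 1 was the lowest array and the other 7 lay close together. Klhl6 had a log2 difference of -0.06 (SE 0.09, limma adjusted p = 0.881), with a 95% confidence interval from -0.27 to 0.15.

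Which genes were near background was judged from 37 measured genes of other tissues, such as those of liver, muscle, brain and sperm, since the deposited values carry no detection call. The limit was the 95th percentile of the levels of these genes, 7.39 in Sca1-HGAL and 7.49 in Control arrays. By this limit 3 of the 8 genes, Nuggc, Mybl1 and Ung, were near background in both groups. So were 10335 of all 19937 genes, so being under the limit is not particular to these 3. Nuggc was at 6.36 ± 0.13 in Sca1-HGAL and 6.49 ± 0.19 in Control arrays (SD, n = 4 each), and 16 of the 37 tissue-restricted genes were above it. Mybl1 and Ung lay just inside the limit. Mybl1 averaged 7.24 ± 0.45 in Sca1-HGAL and 7.36 ± 0.47 in Control arrays (SD, n = 4 each), with 1 of 4 Sca1-HGAL and 2 of 4 Control arrays above the limit. Ung averaged 7.34 ± 0.08 in Sca1-HGAL and 7.36 ± 0.08 in Control arrays (SD, n = 4 each), with 1 of 4 and 0 of 4 arrays above it. Neil1 lay 1.77 and 1.94 above the limit in Sca1-HGAL and Control arrays. Bcl6, Ezh2, Lmo2 and Klhl6 were above it on all 8 arrays. By a limit of log2 6 none of the 8 genes was near background, and by the median of all probe sets 1, Nuggc, was. The limit in Control arrays rested on Gad1, a gene of the brain, which was at 6.99 in Sca1-HGAL and 7.47 in Control arrays (log2 difference -0.49). Without it, an alternative chosen after seeing the data, the limits were 7.40 in Sca1-HGAL and 7.36 in Control arrays, and 1 gene, Nuggc, was near background in both groups. Mybl1 and Ung stayed under the Sca1-HGAL limit. They lay only just above the Control limit, at 7.361 and 7.365 against 7.357. Probe sets differ in how brightly they read the same amount of RNA, so a value near background is no proof that the RNA was absent, and the levels of different genes are not ranked.

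**Figure D4:**
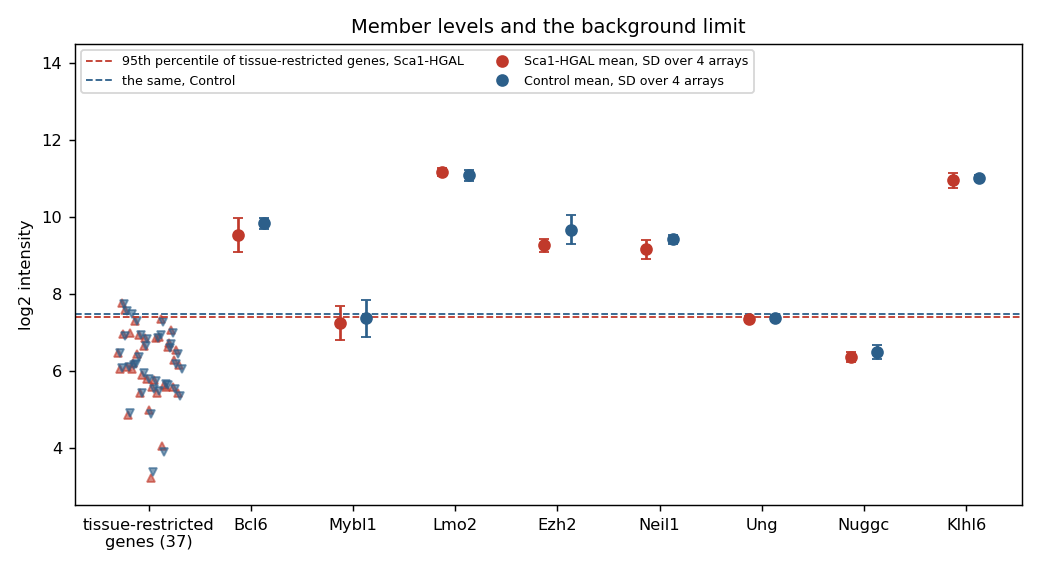
Mean log2 intensity with SD over 4 arrays of each gene in Sca1-HGAL (red) and Control (blue), beside the group means of 37 tissue-restricted genes (triangles in the same colours) and their 95th percentiles (dashed lines). Nuggc, Mybl1 and Ung lie under the dashed lines and the other 5 genes above.

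Genes that act with these members were examined as lists, whose genes were read from 1 probe set each. Over all 19937 genes, 9.53% had an unadjusted p under 0.05 and the median log2 difference was 0.02. No gene of the 11 lists passed the adjusted threshold, at which St3gal5, a ganglioside synthase gene outside the lists, was the 1 gene of the series that passed.

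Effectors and receptors of germinal centre B cells, 17 of them measured, had 8 positive and 9 negative differences and a median of -0.06. At an unadjusted p under 0.05, 1 was higher and 2 were lower in Sca1-HGAL arrays. Pdcd1lg2, the ligand PD-L2 that germinal centre and memory B cells carry, was at 9.16, 8.47, 8.37 and 8.61 in Sca1-HGAL, against 8.24, 8.02, 7.86 and 8.35 in Control replicates 1 to 4. Its groups did not overlap, with a log2 difference of 0.54 (SE 0.17, limma adjusted p = 0.349). Rgs13, a regulator of chemokine receptor signalling with high levels in germinal centre B cells, was at 7.03, 5.12, 6.47 and 5.59 in Sca1-HGAL and 6.51, 7.36, 7.72 and 7.27 in Control replicates 1 to 4. Its log2 difference was -1.16 (SE 0.39, adjusted p = 0.381), the groups overlapped, and its means, 6.05 and 7.21, were under the background limit of each group. Stap1, an adaptor of B cell receptor signalling, had -0.15 (SE 0.07, adjusted p = 0.514). The mouse counterpart of HGAL, Gcsam, was also under the limit, at 6.47 in Sca1-HGAL and 6.76 in Control arrays (log2 difference -0.29, adjusted p = 0.618), and its probes are no sure measure of the human gene. S1pr2, the receptor that confines cells to the germinal centre and named here after its value was seen, had -0.06.

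Transcription factors of germinal centre entry and exit, 15 measured, had a median of -0.05 with 1 gene higher and 0 lower at an unadjusted p under 0.05. Batf, an activation factor needed for class switching, had a log2 difference of 0.26 (SE 0.09, limma adjusted p = 0.379), Myc -0.40 (SE 0.19, adjusted p = 0.538) and Pou2f2, the octamer factor OCT2, 0.13 (SE 0.06, adjusted p = 0.567). The plasma cell regulators Prdm1 and Irf4, picked once their values were known, differed by -0.05 (SE 0.32) and -0.19 (SE 0.21).

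Of the genes that BCL6 is known to repress, 13 were measured, 7 with positive and 6 with negative differences and a median of 0.07. At an unadjusted p under 0.05, 2 were higher, Cd80 and Cd44, and 0 were lower. Cd80, a costimulatory ligand, was at 10.15, 9.84, 8.57 and 9.55 in Sca1-HGAL, against 8.01, 7.83, 8.28 and 8.15 in Control replicates 1 to 4. Every Sca1-HGAL array was above every Control array, with replicate 3 the lowest of the Sca1-HGAL arrays. The log2 difference was 1.46 (SE 0.28, limma adjusted p = 0.130). Cd80 also stands in the B-1 and age-associated B list. Cd44, an adhesion receptor of activated cells, had 0.27 (SE 0.10, adjusted p = 0.415) and S1pr1, a receptor for exit from lymphoid tissue, -0.13 (SE 0.07, adjusted p = 0.606).

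Among 6 measured BCL6 corepressors, with a median of -0.02, Tbl1x, a subunit of the NCOR complex, had the smallest p. It was at 9.90, 9.62, 9.79 and 9.65 in Sca1-HGAL, against 10.08, 10.15, 10.07 and 10.08 in Control replicates 1 to 4, without overlap, a log2 difference of -0.35 (SE 0.07, limma adjusted p = 0.146). The deacetylase genes Hdac3 and Hdac4 had -0.13 (adjusted p = 0.538) and 0.28 (adjusted p = 0.576).

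Relatives and partners of the other transcription regulators were mostly level. Of the MYB family, Myb, which immature B cells, T cells and cycling cells express, was at 7.29 ± 0.39 in Sca1-HGAL and 8.28 ± 0.61 in Control arrays (SD, n = 4 each), a log2 difference of -0.99 (SE 0.29, limma adjusted p = 0.305). Mybl2, the cell cycle member, had 0.04 (adjusted p = 0.946) and the MYB-binding protein gene Mybbp1a -0.02 (adjusted p = 0.982). Of 7 MEF2 family genes and partners 0 had an unadjusted p under 0.05, with Mef2c, the main member in B cells, at -0.14 (SE 0.06, adjusted p = 0.527), the deacetylase gene Hdac7 at -0.15 (adjusted p = 0.559) and the calcineurin inhibitor gene Cabin1 at -0.07 (adjusted p = 0.782). Of 9 genes of the LMO2 complex and LMO family, the E protein gene Tcf12 had -0.18 (SE 0.07, adjusted p = 0.449), Lmo4 -0.16 (adjusted p = 0.568) and Gata2 0.12 (adjusted p = 0.580).

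PRC2, the complex in which EZH2 works, had 10 other subunit genes measured, with a median of -0.04 and 1 gene at an unadjusted p under 0.05. That gene was Jarid2, a subunit that helps recruit the complex, with -0.20 (SE 0.08, limma adjusted p = 0.439) and every Sca1-HGAL array below every Control array. Phf1 had 0.20 (SE 0.09, adjusted p = 0.532), and the core subunit gene Suz12 -0.10 (SE 0.06, adjusted p = 0.645). The mean level of the 10 subunit genes was 9.76 ± 0.03 in Sca1-HGAL and 9.77 ± 0.03 in Control arrays (SD, n = 4 each).

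Base excision repair genes other than Ung and Neil1, 16 measured, had a median of 0.03, and 3 were higher and 0 lower at an unadjusted p under 0.05, which is 18.8% of the list, against 5.49% of all genes higher. The glycosylase gene Mutyh had a log2 difference of 0.25 (SE 0.07, limma adjusted p = 0.294), Mbd4 0.21 (SE 0.08, adjusted p = 0.456) and Mpg 0.21 (SE 0.09, adjusted p = 0.506). Of 6 mismatch repair genes used in hypermutation, Exo1, the exonuclease of this pathway, had -0.30 (SE 0.07, adjusted p = 0.235), with all 4 Sca1-HGAL arrays (6.51 to 6.82) below all 4 Control arrays (6.95 to 7.07), at levels under the background limit. The polymerase gene Polh had -0.12 (adjusted p = 0.756) and Msh6 0.06 (adjusted p = 0.816).

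Of 7 genes around KLHL6, 1 had an unadjusted p under 0.05, Klhl14, another KLHL gene of B cells, with -0.20 (SE 0.06, limma adjusted p = 0.309) and groups that did not overlap. Klhl5 had 0.09 (adjusted p = 0.782) and Klhl42 -0.08 (adjusted p = 0.812).

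**Figure D5:**
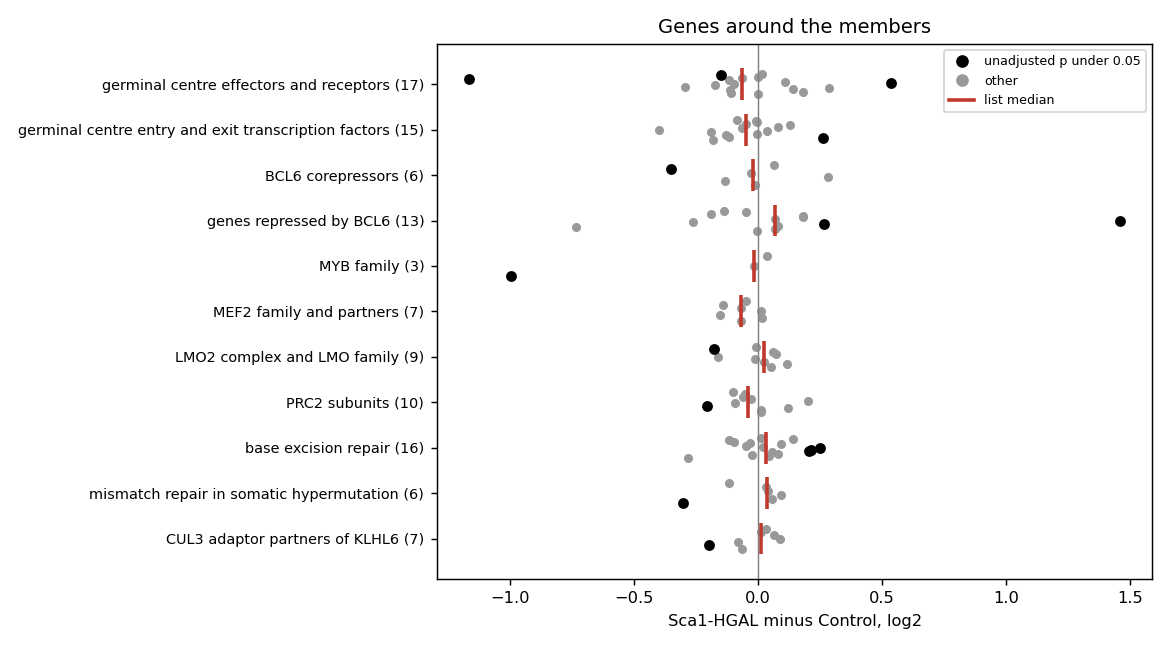
Log2 difference, Sca1-HGAL minus Control, of each gene of the 11 lists (number measured in brackets), with black points at an unadjusted limma p under 0.05 and red lines at the list medians. The medians lie between -0.07 and 0.07, and the points farthest out are Cd80 (1.46), Rgs13 (-1.16) and Myb (-0.99).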

How the data were processed

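The deposited table holds linear intensities. The authors used RMA to make them, per the submitters' processing notes, with the software version and genome build not given in the sources used here. Array medians ranged from 145.2 to 151.4 over 34760 rows, so arrays were already on a common scale, and a shift shared by most genes would be removed. No sample was left out and no pair of arrays shared more than 0.060% of equal values. Here log2 was taken with no pseudocount.

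The platform table tied 21640 probe sets to 1 symbol, 1321 to several and did not list 11799. Where a gene had several, the brightest on average was used. Groups were compared by moderated linear models (limma 3.58.1, R 4.3.3, two-sided, no covariate, Benjamini-Hochberg over 21640 probe sets, threshold 0.05).

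Genes named were all measured members, the 3 genes of smallest p in each list around them, the 3 genes most like the 3 members of smallest p, and a fixed few. S1pr2, Prdm1, Irf4, Prf1 and Gad1 were picked after their values were seen. The members and lists were chosen with earlier results of these data known. The replicate numbers did not pair the arrays (correlations of same-numbered deviations from -0.16 to 0.05). Depth does not apply to arrays; 4 arrays per group limit the precision.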

Additional observations from a re-analysis of the deposited data

Results flagged for a closer look

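Of 16 groups of 4 values checked for the 8 measured genes, 1 held an array apart from its 3 group mates, where chance gives about 0.8. Ung on Control replicate 2 was at 7.48 in log2 intensity, against 7.31 to 7.34 on the other 3 Control arrays.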

How the results depend on the processing

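Under the 18 alternative settings run, 0 of the measured genes passed an adjusted p under 0.05, with each array left out in turn as well (lowest and highest count 0), while between 0 and 2 had an unadjusted p under 0.05. Bcl6 kept a negative log2 difference in all 18 settings (-0.51 to -0.20), as did Ezh2 (-0.57 to -0.28) and Neil1 (-0.35 to -0.17), and Lmo2 a positive one (0.039 to 0.14). Ezh2 had an unadjusted p under 0.05 in 11 settings, Neil1 in 9 and Bcl6 in 1, the setting without Sca1-HGAL replicate 3. Small differences changed sign: with each array left out in turn, Mybl1 ranged from -0.33 to 0.068 (the positive value without Control replicate 4), Klhl6 from -0.11 to 0.026 (positive without Sca1-HGAL replicate 1), and Ung from -0.056 to 0.014 (positive without Control replicate 2 and without Sca1-HGAL replicate 3). Without the 2 Control arrays high in Xist, 0 genes had an unadjusted p under 0.05, and Mybl1 was at 0.27, Nuggc at 0.0044, Klhl6 at 0.0036 and Ung at 0.014. The cause was not tested. With the replicate number as a block, 1 gene had an unadjusted p under 0.05, the adjusted p of Ezh2 was 0.612 and that of Neil1 0.433, and 6 probe sets of the series passed against 1. Over the other settings 1 to 40 passed, with 12 under array weights and 40 without Sca1-HGAL replicate 3. The count of genes near background was 3 by the tissue-restricted genes, 0 by a limit of log2 6 and 1 by the median of all probe sets, and 1, Nuggc, by the tissue-restricted genes without Gad1, a setting chosen after seeing the data. Nuggc was not tested under the filter at the median level, which it did not reach. A signal near background compresses differences, which limits the values for Nuggc. It may also limit those for Mybl1 and Ung. Without Gad1 their Control means lay only just above the limit, at 7.361 and 7.365 against 7.357. Their Sca1-HGAL means stayed under the limit of that group.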
